A study of Mus musculus with 7 samples.

Results

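The genes of voltage-gated and TRP (transient receptor potential) ion channels were followed in pancreatic islets of mice in which Abca12, a lipid transporter gene, was deleted in insulin-producing cells, and in controls. Members were taken by name from the table of all genes: every symbol beginning with Kcn, Cacn, Scn, Hcn, Clcn, Trpc, Trpm or Trpv (a digit following in the Scn, Hcn and Trp symbols), together with Abcc8. Of 177 such rows, 112 had at least 10 reads' worth, 0.366 RPM (the reads of a gene scaled to a common library total, in the unit of the deposited log values), in 2 or more libraries, and these 112 stand among 16212 genes that met the same minimum.

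The islets, which hold the hormone-secreting cells of the pancreas, were taken from C57BL/6J mice at 8 weeks of age, and polyA RNA of each mouse was sequenced. The KO group held 5 mice (KO 1 to KO 5, genotype Abca12 tm1d), in which a floxed Abca12 allele had been deleted by Rip1-Cre. The Control group held 2 mice, Control 1 with wild-type Abca12 and Control 2 heterozygous for the floxed allele. Every mouse of both groups carried Rip1-Cre, a transgene driven by the rat insulin promoter. The deletion is thus aimed at beta cells, and not at the other cells of the islet. Each control genotype rests on 1 mouse. The column headers of KO 1 and KO 2 end in f and the other 5 in m, which is taken here as female and male. Abca12 (chromosome 1, 71242276 to 71414910, minus strand, GRCm38) had 0 reads in all 7 libraries, controls included, so its reads do not check the labels. A count of 0 allows at most 0.0696 RPM in the deepest and 0.125 RPM in the shallowest library. Libraries held 23923000 to 43117300 reads, of which 54.6% to 57.0% fell in listed genes.

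Beta cells couple glucose to insulin release through their membrane potential. ATP made from glucose closes the KATP channel, which is built from the pore protein encoded by Kcnj11 and the sulfonylurea receptor encoded by Abcc8. The membrane then depolarises, voltage-gated sodium and calcium channels open, calcium triggers exocytosis, and voltage-gated and calcium-activated potassium channels end each action potential. TRP channels carry small depolarising currents, and CLC proteins move chloride across the surface and granule or lysosome membranes.

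No channel gene passed the test across all genes. The genes with the smallest p were mostly lower in KO, among them Cacna2d1, Cacna1d, Scn9a and Scn3a of the calcium and sodium channels, at log2 fold changes of -0.47 to -0.25. By limma, with Benjamini-Hochberg adjustment over all 16212 genes, 0 of the 112 members passed an adjusted p of 0.05 (0.0617% of all tested genes passed, 0.0432% higher and 0.0185% lower in KO), and voom on the recovered reads also gave 0. At an unadjusted p under 0.05 there were 21 members, which is 18.8% against 10.8% of all tested genes. Of these, 15 were lower in KO (13.4%, against 6.16% of all genes) and 6 higher (5.36%, against 4.64%). The 5 KO libraries lay below both Control libraries for 16 members (14.3%, against 8.41% of all genes) and above both for 6 (5.36%, against 6.75%), so 22 members in all did not overlap (19.6%, against 15.2%). The median log2 fold change, KO minus Control on the log2(RPM + 1) scale, was -0.04 for the members and -0.01 for all tested genes. The log2 fold change was below 0 for 61 members (54.5%, against 51.7% of all genes). Once a score of acinar transcripts entered the fit, 7.14% of members had an unadjusted p under 0.05, against 7.37% of all genes. By direction, 3 of the 112 members were higher and 5 lower, beside 886 higher and 309 lower of all 16212 genes. When the libraries highest in acinar transcripts (KO 2 and KO 3) were left out, this share was 16.1% of members against 9.67% of all genes. Then 5 members were higher and 13 lower, beside 927 higher and 641 lower of all 16212 genes.

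Whole islets hold several cell types, and in such bulk RNA fewer cells of a type and less RNA per cell cannot be told apart. Kcnj11, Abcc8 and Cacna1d, taken here to mark the excitable endocrine cells of the islet, were each above 50 RPM in all 7 libraries. They are members themselves, so their levels are no separate check of the tissue label. Over 10 beta cell markers the summed level ran from 59671 to 88163 RPM in KO and was 70004 and 77096 in Control 1 and Control 2, so the groups overlapped. Most of that sum is insulin and Iapp transcripts. By gene, 8 of the 10 were lower in KO with a median log2 fold change of -0.11, and Ucn3 (-0.46) and Slc30a8 (-0.16) had all KO libraries below both controls. The part of beta cell markers in the lower channel genes was not tested. Acinar markers (33 of 34 past the reads minimum) summed to 2169 to 13101 RPM in KO and 1080 and 580 in Control 1 and Control 2. Delta and PP cell markers (7 of 7) summed to 1721 to 2676 RPM in KO and 1590 and 1302 in Control. Alpha cell markers (9 of 9) summed to 2601 to 7305 RPM in KO and 3222 and 3336 in Control, 7 of them being higher in KO with a median log2 fold change of 0.37. Duct markers (12 of 12) summed to 1917 to 2647 RPM in KO and 2240 and 2291 in Control. Most of that sum is Spp1, which averaged 1264 RPM in KO and 1455 in Control. By gene, 8 of the 12 duct markers were higher in KO and 4 lower, with a median log2 fold change of 0.24. At an unadjusted p under 0.05 by limma, 5 were higher and 0 lower. All KO libraries lay above both controls for 4 of them. Schwann cell and neuron markers (8 of 12) summed to 38.6 to 46.5 RPM in KO and 36.7 and 37.9 in Control, every KO library being above both controls. Endothelial markers (14 of 14) summed to 144 to 203 RPM in KO and 217 and 271 in Control, and stellate and pericyte markers (14 of 15) to 46.3 to 60.4 in KO and 58.6 and 169 in Control. No gene of these lists was at 0 in all libraries.

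**Figure D1:**
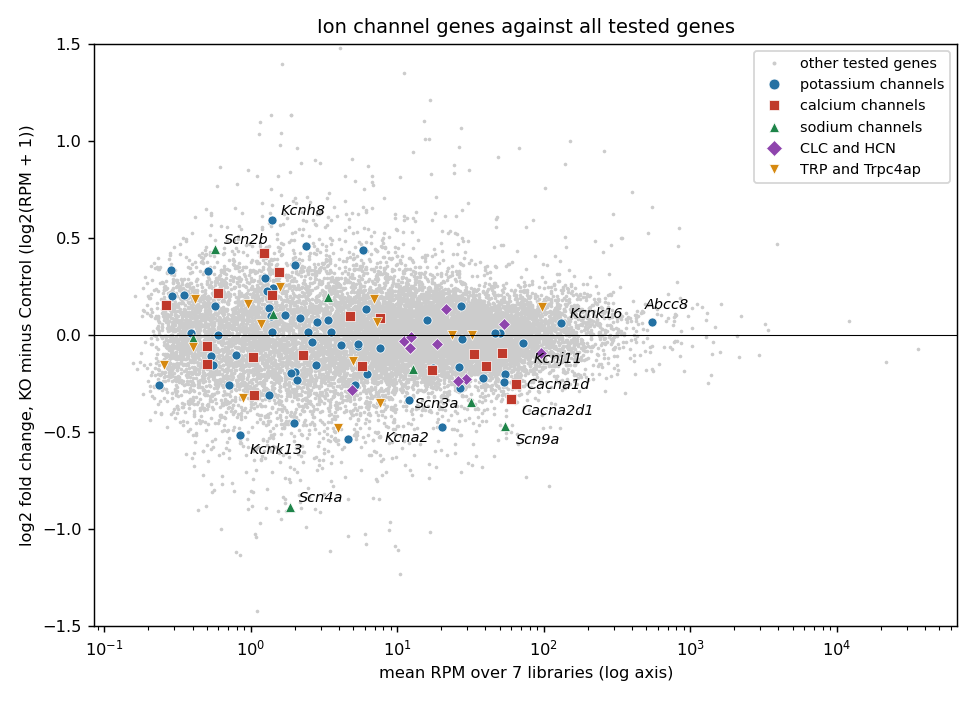
Log2 fold change (KO minus Control, on log2(RPM + 1)) of each tested gene against its mean RPM over the 7 libraries on a log axis, with the 112 channel genes in colour by family and all other tested genes in grey (45 of them lie outside the vertical axis, which ends at 1.5 in both directions). The channel genes sit around 0, Scn4a is the lowest at -0.89 and Kcnh8 the highest at 0.59, and a cluster with Scn3a, Scn9a, Cacna1d and Cacna2d1 lies below 0 between 10 and 100 RPM.

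Levels of different genes were compared per exonic kilobase. The KATP channel and a two-pore potassium channel led the family. Abcc8 (chromosome 7, 46104523 to 46180033, minus strand) stood at 68.1 ± 4.49 RPM per kilobase in KO (SD, n = 5) and 64.9 ± 2.25 in Control (SD, n = 2). Kcnk16, the gene of a two-pore channel that carries a background potassium current in islet cells, stood at 55.5 ± 5.15 RPM per kilobase in KO and 53.5 ± 9.55 in Control. Next was Kcnj11 (chromosome 7, 46093953 to 46100764, minus strand, 3758 bases from Abcc8) at 19.3 ± 0.948 RPM per kilobase in KO and 19.9 ± 0.609 in Control. Abcc8 and Kcnk16 lay more than their SDs apart in KO but not in Control, where the SD of Kcnk16 was wide, and both lay well above Kcnj11. Below them came Kcnk1, Kcnh2, Trpc4ap and Kcnh6, whose means over all libraries were 10.9 to 12.1 RPM per kilobase and and whose ranges over the 7 libraries overlapped between neighbours in this order.

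Among the 112 members, 7 exceeded 10 RPM per exonic kilobase, 35 lay between 1 and 10, 57 between 0.1 and 1 and 13 at or below 0.1. The members from 1 to 10 had 24 lower and 11 higher in KO with a median log2 fold change of -0.09, and those from 0.1 to 1 had 28 lower and 29 higher with a median of 0.01. By level in RPM, 26 of 35 members with a mean of 10 to 100 RPM were lower in KO, beside 3752 of 7318 of all tested genes in that range, with medians of -0.10 and -0.004. Of members with a mean of 1 to 10 RPM, 23 of 51 were lower, with a median of 0.02.

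**Figure D2:**
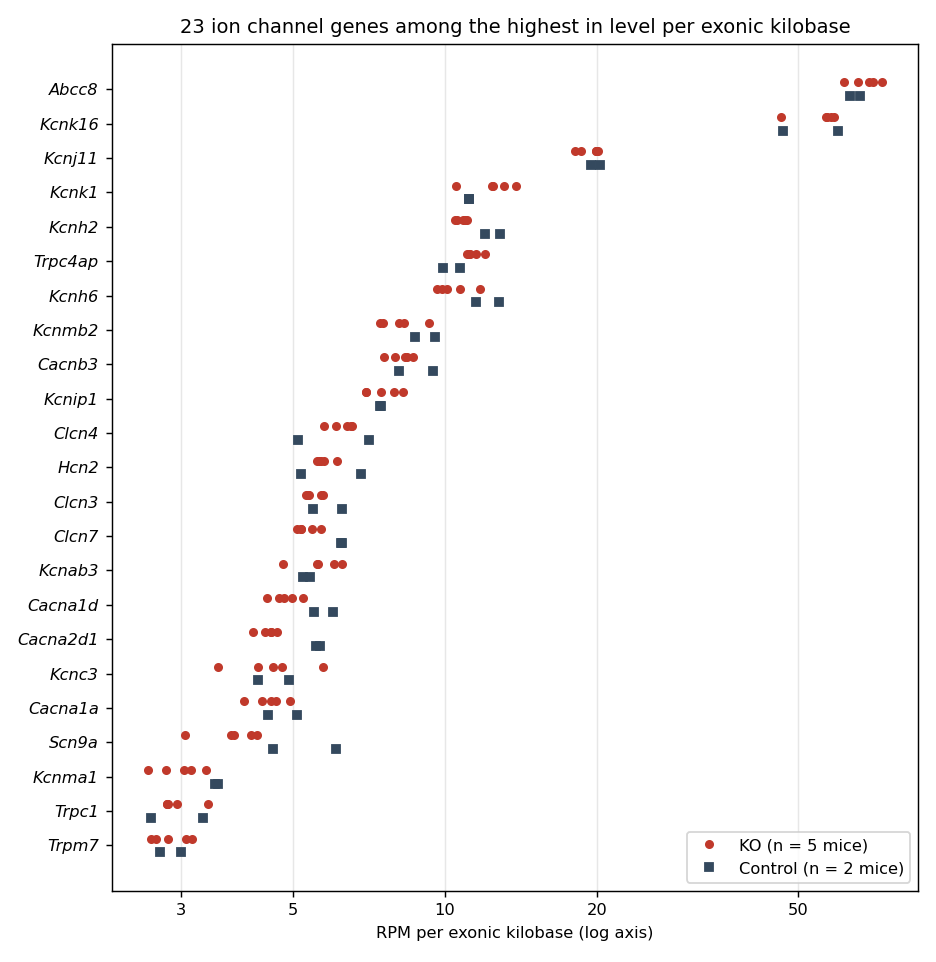
Level of 23 channel genes among those with the highest mean, as RPM per exonic kilobase on a log axis, with each of the 5 KO libraries as a circle and each of the 2 Control libraries as a square below it. Abcc8, Kcnk16 and Kcnj11 stand apart at the top with overlapping groups, and the KO points of Kcnh2, Cacna1d, Cacna2d1, Clcn7, Scn9a and Kcnma1 lie left of both Control points.

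KATP channel genes differed little between the groups. Kcnj11 stood at 68.3, 73.3, 66.4, 74.0 and 73.3 RPM in KO 1 to KO 5 and at 74.7 and 71.6 in Control 1 and Control 2, a log2 fold change of -0.04 (SE 0.07, adjusted p = 0.88 by limma). Abcc8 stood at 593, 571, 499, 560 and 533 RPM in the KO libraries and 538 and 513 in Control (log2 fold change 0.07, SE 0.08, adjusted p = 0.836). Both groups overlapped for both genes. Kcnj8 and Abcc9, named after their values were seen, encode the KATP channel of vascular smooth muscle and pericytes. Kcnj8 stood at 1.15, 1.62, 1.29, 1.83 and 2.55 RPM in KO and 1.92 and 3.50 in Control (log2 fold change -0.46, SE 0.22, adjusted p = 0.483). Its partner Abcc9 averaged 6.54 ± 1.38 RPM in KO and 9.77 ± 1.57 in Control and was below both Control libraries in 5 of 5 KO libraries. The stellate, pericyte and endothelial marker sums given above were likewise lower in KO on average, and their part in these values was not tested.

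Other inward rectifiers, which include the channels opened by G proteins, gave 8 members past the reads minimum of 13 names, 4 higher and 4 lower, with a median log2 fold change of -0.02. Their highest member per kilobase, Kcnj5, stood at 5.32, 5.18, 7.60, 5.93 and 7.31 RPM in KO and 5.23 and 5.94 in Control (log2 fold change 0.13, SE 0.16, adjusted p = 0.826). None of the 8 had an unadjusted p under 0.05 by limma, beside 10.8% of all tested genes.

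Two-pore potassium channels, which set the resting potential, gave 9 of 14 names. Kcnk16 stood at 136, 140, 110, 138 and 135 RPM in KO and 143 and 111 in Control, so KO 3 and Control 2 were the low libraries and the groups overlapped (log2 fold change 0.06, SE 0.11, adjusted p = 0.893). Its fold change was -0.12 without Control 2 and 0.24 without Control 1. Kcnk3, an acid-sensitive member, stood at 9.38, 5.93, 6.36, 5.71 and 4.62 RPM in KO and 4.93 and 3.83 in Control. It was above both Control libraries in 4 of 5 KO libraries (log2 fold change 0.44, SE 0.20, adjusted p = 0.461). Kcnk13, a channel known from microglia, stood at 0.651, 0.451, 0.447, 0.879 and 0.812 RPM in KO and 1.13 and 1.57 in Control, with no overlap of the groups (log2 fold change -0.51, SE 0.16, adjusted p = 0.261). Macrophage markers (10 of 10) summed to 46.5 to 58.7 RPM in KO and 50.5 and 81.3 in Control, where Lyz2 made up 33.1 RPM of the Control 2 sum. By gene, 6 of the 10 were higher in KO and 4 lower, with a median log2 fold change of 0.05 over the 10. Mrc1 (0.69) and Cx3cr1 (0.25) had all KO libraries above both controls. Among the lower genes, Lyz2 (-1.23) and C1qa (-0.08) had 4 of 5 KO libraries below both controls. Cd68 (-0.24) and C1qc (-0.00) had 3 of 5. The remaining KO libraries of C1qa and C1qc lay above both controls. The part of the macrophage markers in the Kcnk13 values was not tested.

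Among the 22 tested voltage-gated potassium channel genes, the groups did not overlap for 4, beside 15.2% of all tested genes. Kcnh2 and Kcnd1 were lower in all KO libraries (8.41% of all genes), and Kcnh8 and Kcnq1 were higher (6.75% of all genes). Of 40 names, 22 were tested: 12 were lower and 10 higher, with a median log2 fold change of -0.04. Kcnh2 and Kcnh6 encode channels of the ERG family, which shape repolarisation. Kcnh2 stood at 53.2, 51.3, 50.7, 52.5 and 53.7 RPM in KO and 62.3 and 58.3 in Control, with all KO libraries below both controls (log2 fold change -0.20, SE 0.07, adjusted p = 0.278). Kcnh6 stood at 41.6, 35.8, 35.1, 38.0 and 34.3 RPM in KO and 45.5 and 40.9 in Control, where KO 1 lay above Control 2 (log2 fold change -0.22, SE 0.09, adjusted p = 0.391). Kcnd1, an A-type channel gene named after its values were seen, stood at 4.90, 5.07, 4.81, 4.07 and 5.06 RPM in KO and 5.56 and 6.27 in Control (log2 fold change -0.26, SE 0.13, adjusted p = 0.512).

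Kcna2, a Shaker-type channel of neurons, stood at 17.0, 15.0, 17.7, 18.8 and 21.4 RPM in KO and 20.7 and 30.8 in Control (log2 fold change -0.48, SE 0.15, adjusted p = 0.258). Control 2 was the high library, and the log2 fold change was -0.20 without it and -0.75 without Control 1. Kcnh8, of the ELK family, had the highest log2 fold change of the members on the log2(RPM + 1) scale, though by voom that of Scn2b was higher (1.72, against 1.13 for Kcnh8). It stood at 1.72, 1.80, 1.92, 1.32 and 1.46 RPM in KO and 0.836 and 0.663 in Control, with all KO libraries above both controls (log2 fold change 0.59, SE 0.15, adjusted p = 0.159). Kcnq1, which was chosen here after its values were seen, stood at 3.68, 2.18, 2.65, 2.42 and 2.41 RPM in KO and 1.25 and 2.11 in Control, all KO libraries being above both controls (log2 fold change 0.46, SE 0.18, adjusted p = 0.399). The noncoding Kcnq1ot1 lies within Kcnq1 on the other strand. The strand setting of the counting is not given in the sources used here, so reads of this pair may not be told apart.

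Slo and SK family genes, which include the calcium-activated potassium channels, gave 8 of 14 names, 5 lower and 3 higher, with a median log2 fold change of -0.20. All KO libraries lay below both controls for 3 of the 8, Kcnma1, Kcnmb1 and Kcnu1, beside 8.41% of all tested genes. Kcnma1, the pore of the large-conductance calcium-activated channel, stood at 47.7, 51.6, 53.3, 57.0 and 43.9 RPM in KO and 60.2 and 59.6 in Control, with no overlap (log2 fold change -0.24, SE 0.09, adjusted p = 0.37). Kcnmb2, its auxiliary subunit, stood at 26.0, 29.1, 23.6, 23.3 and 25.4 RPM in KO and 29.9 and 27.3 in Control, where KO 2 lay between the controls (log2 fold change -0.16, SE 0.10, adjusted p = 0.578). Of the auxiliary and interacting proteins of voltage-gated potassium channels, 8 of 13 names were tested, 6 being higher and 2 lower. Of these 8, 0 had an unadjusted p under 0.05 by limma, beside 10.8% of all tested genes. Kcnip1, a calcium-binding partner of A-type channels, averaged 46.7 ± 3.59 RPM in KO and 46.2 ± 0.117 in Control (log2 fold change 0.01, SE 0.08, adjusted p = 0.975).

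Among calcium channel genes, the L-type pore gene Cacna1d, the auxiliary gene Cacna2d1 and the low alpha1 gene Cacna1i had all KO libraries below both controls. The same held for 8.41% of all tested genes. Cacna1d (chromosome 14, 30039939 to 30491455, minus strand) stood at 62.9, 60.5, 56.1, 66.2 and 59.3 RPM in KO and 75.8 and 69.6 in Control (log2 fold change -0.25, SE 0.08, adjusted p = 0.245). The other L-type pore gene of beta cells, Cacna1c, stood at 39.2, 40.8, 37.9, 43.0 and 32.9 RPM in KO and 43.8 and 42.6 in Control, where KO 4 lay between the controls (log2 fold change -0.16, SE 0.09, adjusted p = 0.585). Cacna1a, the P/Q-type pore, stood at 51.6, 52.8, 49.7, 56.4 and 45.7 RPM in KO and 50.9 and 58.3 in Control, and the groups overlapped (log2 fold change -0.09, SE 0.09, adjusted p = 0.768). Cacna1i, named after its values were seen, averaged 0.925 ± 0.0935 RPM in KO and 1.38 ± 0.00482 in Control (log2 fold change -0.31, SE 0.13, adjusted p = 0.434 by limma). Among the 8 tested alpha1 genes of 10 names, 4 were higher and 4 lower, and Cacna1s had no reads. All KO libraries lay below both controls for 2 of the 8, Cacna1d and Cacna1i.

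Cacna2d1 encodes the alpha2-delta subunit that carries calcium channels to the membrane, and had the smallest p of all members. It stood at 56.2, 56.1, 57.8, 51.8 and 54.6 RPM in KO and 70.4 and 69.1 in Control (log2 fold change -0.33, SE 0.07, unadjusted p = 0.000337 and adjusted p = 0.0895 by limma). The KO values spanned 51.8 to 57.8 RPM, and both controls lay above that span. Its log2 fold change ran from -0.43 to -0.31 over 20 other settings. Cacna2d4, a related subunit known from the retina, stood at 1.72, 1.46, 1.34, 1.32 and 1.14 RPM in KO and 0.752 and 0.814 in Control, all KO libraries being above both controls (log2 fold change 0.42, SE 0.14, adjusted p = 0.31). The beta subunit gene Cacnb3, which restrains calcium signalling in mouse beta cells, averaged 32.9 ± 1.68 RPM in KO and 35.3 ± 3.70 in Control (log2 fold change -0.10, SE 0.08, adjusted p = 0.729). Of 11 auxiliary genes tested from 16 names, 8 were lower and 3 higher in KO, with a median of -0.10.

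Among sodium channel genes, the 3 with the smallest p were lower in KO. Scn9a and Scn3a, the principal sodium channel pores of mouse islet cells, lie near each other on chromosome 2. Scn9a (66480080 to 66634962, minus strand) stood at 39.1, 48.2, 48.9, 52.8 and 54.3 RPM in KO and 77.8 and 58.3 in Control (log2 fold change -0.47, SE 0.13, adjusted p = 0.196). All KO libraries lay below both controls. The highest KO library was 1.39 times the lowest, and the ratio between the controls was 1.33. Without Control 1 the log2 fold change was -0.27 and without Control 2 it was -0.67. Scn3a (65457118 to 65567627, minus strand) stood at 30.1, 30.9, 26.6, 29.2 and 30.7 RPM in KO and 40.5 and 35.1 in Control (log2 fold change -0.35, SE 0.09, adjusted p = 0.159). The other sodium channel genes of that stretch were low: Scn2a averaged 0.399 ± 0.140 RPM in KO and 0.408 ± 0.104 in Control, and Scn1a and Scn7a had at most 0.184 RPM in any library.

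Scn4a, the sodium channel of skeletal muscle, had the largest log2 fold change of all members on the log2(RPM + 1) scale. By voom that of Scn2b was larger (1.72, against -1.38 for Scn4a). It stood at 0.958, 1.01, 0.999, 2.16 and 1.44 RPM in KO and 2.76 and 3.71 in Control, with no overlap (log2 fold change -0.89, SE 0.20, adjusted p = 0.127). The authors' deposited table of 136 selected genes holds Scn4a as its only channel gene, with a log2 difference of -1.36, turned here to KO minus Control, and a corrected p of 0.0288. That difference is between mean log2 values of 0.32 in KO and 1.68 in Control, and the p is from the authors' own test. Neither is on the same footing as the log2(RPM + 1) fit given here. With the acinar score as a covariate its log2 fold change was -0.43. The symbol has 2 rows, and the second (chromosome 11, 106349455 to 106353288) had at most 0.0904 RPM. Scn4a (106318592 to 106349389) lies beside the B cell gene Cd79b, which stood at 0.0376 to 0.417 RPM in KO, 0.0836 in Control 1 and 4.70 in Control 2. Scn2b, an auxiliary subunit, stood at 0.689, 0.601, 0.683, 0.476 and 1.04 RPM in KO and 0.376 and 0.121 in Control, all KO libraries being higher (log2 fold change 0.44, SE 0.16, adjusted p = 0.336). Of 15 sodium channel rows 8 were tested, 5 lower and 3 higher in KO.

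**Figure D3:**
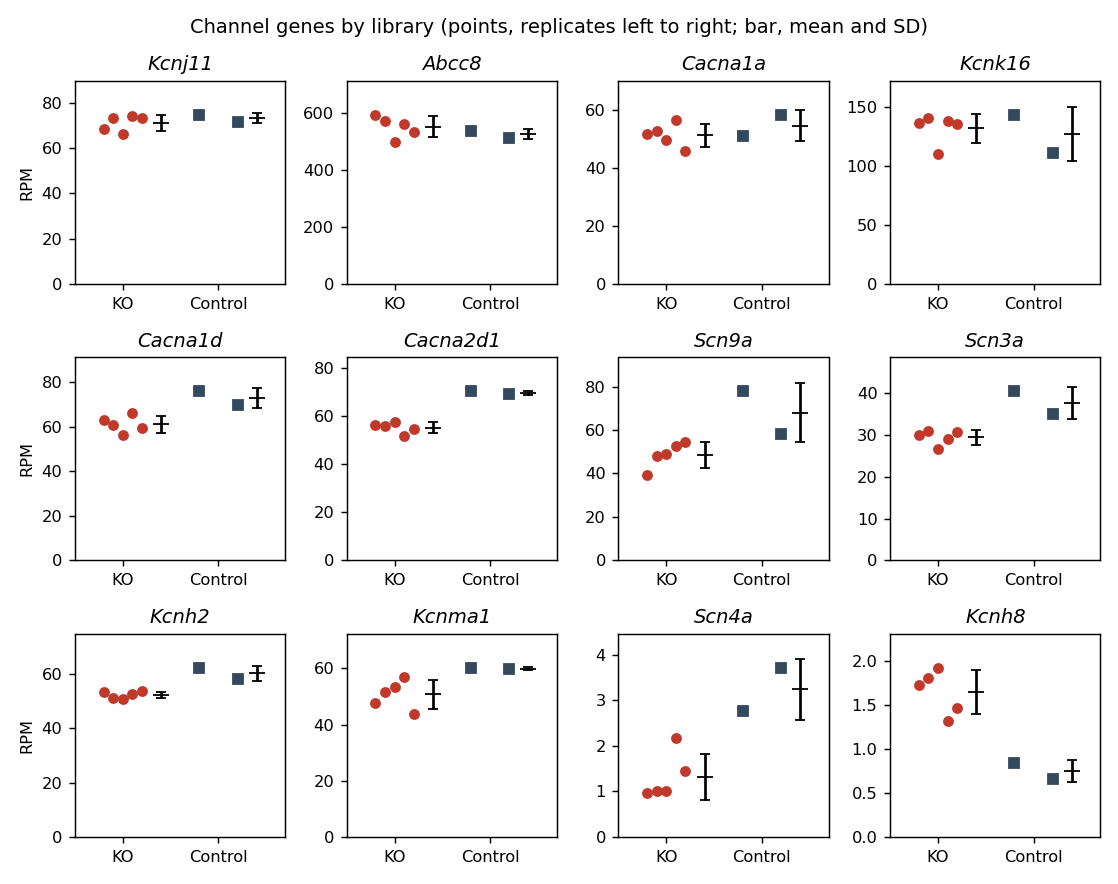
RPM of 12 channel genes in each library, with KO (5 mice, circles) left of Control (2 mice, squares) and the mean ± SD as a bar beside each group, each axis starting at 0. Kcnj11, Abcc8, Cacna1a and Kcnk16 overlap between the groups, Cacna1d, Cacna2d1, Scn9a, Scn3a, Kcnh2, Kcnma1 and Scn4a have all KO points below both Control points, and Kcnh8 has them all above.

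The promoters of Scn9a and Cacna2d1, lower in KO libraries, and of Kcnh8, higher in KO libraries, are shown as examples of members whose groups did not overlap. Each runs from 250 bases before to 50 bases after the start of the gene, 5′ to 3′ on the gene's strand, from RefSeq on GRCm38.p6. Capitals mark GC boxes (GGGCGG on either strand, overlapping matches included). Scn9a is at chr2:66634913-66635212 (minus strand), Cacna2d1 at chr5:15934441-15934740 (plus strand) and Kcnh8 at chr17:52602459-52602758 (plus strand).
Scn9a: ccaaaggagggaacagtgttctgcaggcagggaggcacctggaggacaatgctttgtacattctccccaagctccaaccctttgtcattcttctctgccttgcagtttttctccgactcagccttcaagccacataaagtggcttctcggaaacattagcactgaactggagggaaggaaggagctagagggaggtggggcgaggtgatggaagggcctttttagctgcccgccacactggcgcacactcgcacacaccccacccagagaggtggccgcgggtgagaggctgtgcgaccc
Cacna2d1: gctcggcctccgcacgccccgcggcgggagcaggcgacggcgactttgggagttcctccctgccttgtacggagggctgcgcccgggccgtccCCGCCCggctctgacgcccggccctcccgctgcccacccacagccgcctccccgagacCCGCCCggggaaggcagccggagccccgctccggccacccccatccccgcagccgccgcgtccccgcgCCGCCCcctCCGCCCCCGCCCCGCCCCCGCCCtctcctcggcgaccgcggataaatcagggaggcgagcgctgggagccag
Kcnh8: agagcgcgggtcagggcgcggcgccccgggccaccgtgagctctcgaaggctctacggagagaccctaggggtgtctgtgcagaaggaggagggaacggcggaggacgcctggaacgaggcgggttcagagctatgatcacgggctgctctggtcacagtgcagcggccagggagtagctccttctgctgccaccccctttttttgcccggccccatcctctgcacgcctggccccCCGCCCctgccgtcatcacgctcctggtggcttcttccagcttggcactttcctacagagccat
Cacna2d1 held 7 GC boxes, Kcnh8 held 1 and Scn9a held 0, and 35.7% of all 32851 promoters of this length in the RefSeq table hold at least 1. Bases G and C made up 57.3% of the Scn9a window, 80.0% of the Cacna2d1 window and 66.0% of the Kcnh8 window, with a median of 52.7% over all promoters. A TATA box (TATAAA) was in none of the 3 windows and is in 13.6% of all promoters. Likewise, the windows held no CCAAT box (the letters CCAAT, in 37.4% of all promoters). They also held no cAMP response element (TGACGTCA, in 1.79% of all promoters). Both strands were searched for each. A promoter was in the table for 83 of the 112 members. Among their 117 promoters, some genes having several, 47.0% hold a GC box and 6.84% a TATA box.

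CLC genes encode chloride channels and chloride-proton exchangers. Of 9 names 6 were tested, 5 lower and 1 higher in KO, with a median log2 fold change of -0.16. Clcn7, the exchanger of lysosomes, stood at 27.5, 28.9, 27.4, 30.1 and 26.9 RPM in KO and 33.0 and 33.1 in Control, with no overlap (log2 fold change -0.23, SE 0.08, adjusted p = 0.303). Clcn5, an endosomal exchanger on the X chromosome that was chosen after its values were seen, stood at 25.6, 22.5, 26.9, 26.7 and 22.4 RPM in KO and 29.7 and 29.1 in Control (log2 fold change -0.24, SE 0.09, adjusted p = 0.384). Its KO values in the libraries marked female, 25.6 and 22.5, lay within the range of those marked male. Clcn4, the highest of the family per kilobase, averaged 53.7 ± 2.82 RPM in KO and 52.2 ± 11.8 in Control, where the controls stood at 60.6 and 43.9, on either side of every KO library (log2 fold change 0.05, SE 0.11, adjusted p = 0.9).

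HCN genes, the pacemaker channels opened by hyperpolarisation, were all tested, with 3 of 4 lower and a median log2 fold change of -0.02. Hcn2 stood at 18.2, 18.0, 19.5, 18.4 and 17.8 RPM in KO and 16.6 and 21.8 in Control, so every KO library lay between the controls (log2 fold change -0.05, SE 0.10, adjusted p = 0.914).

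TRP channel genes gave 14 of 21 names, 8 higher and 6 lower, with a median log2 fold change of 0.002. Trpm5, a calcium-activated cation channel of beta cells, stood at 6.55, 7.14, 6.83, 7.66 and 8.91 RPM in KO and 6.35 and 7.68 in Control (log2 fold change 0.07, SE 0.14, adjusted p = 0.906). The groups did not overlap for 1 of the 14 tested TRP genes, beside 15.2% of all tested genes. This was Trpm2, a channel opened by ADP-ribose in beta cells and leukocytes. It stood at 2.91, 3.19, 3.71, 3.48 and 3.85 RPM in KO and 4.22 and 6.24 in Control (log2 fold change -0.48, SE 0.16, adjusted p = 0.303). Control 2 was the high library, and the log2 fold change was -0.24 without it and -0.71 without Control 1. Lymphocyte markers (3 of 10 past the reads minimum) summed to 1.60 to 3.59 RPM in KO, 2.09 in Control 1 and 18.6 in Control 2, and their part in the Trpm2 values was not tested. Trpc1, the highest TRP channel per kilobase, averaged 23.8 ± 2.01 RPM in KO and 23.8 ± 4.01 in Control.

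Other rows met the naming rule without being channels. Trpc4ap, an adaptor protein named for binding a TRP channel, stood at 105, 98.1, 97.7, 101 and 97.0 RPM in KO and 86.7 and 93.6 in Control, all KO libraries being above both controls (log2 fold change 0.15, SE 0.07, adjusted p = 0.442). The noncoding Kcnq1ot1, chosen after its values were seen, varied most among KO libraries of the 50 members with a mean of at least 5 RPM. It stood at 20.3, 26.4, 12.5, 16.2 and 10.2 RPM in KO and 17.0 and 19.8 in Control. Over these 50 members the highest KO library exceeded the lowest by a median ratio of 1.26, and by more than 1.5 for 11 members. The ratio between the controls had a median of 1.14 and was above 1.5 for 0 members. A range over 5 libraries is wider than one over 2 by construction, so these ratios do not compare the spread of the groups.

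The 65 rows below the reads minimum were not tested: 11 had no reads in any library and 54 had some. Cacna1f and Kcnj15 were just inside the minimum, and their second highest library had 0.368 and 0.376 RPM. Just outside were Kcne4, Scn11a and Kcnj16 at 0.338 to 0.362 RPM. Of the 112 members, 93 reached the minimum in all 7 libraries. Kcnd3, Kcna6, Kcnk9 and Cacna1f met it through KO libraries alone, where a higher KO value follows in part from the minimum itself, and 0 met it through Control alone.

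Genes that act with the channels in setting calcium and excitability were listed apart from the members, and 58 of 60 were tested. In KO, 38 were lower and 20 higher, with a median log2 fold change of -0.05. At an unadjusted p under 0.05, 6 of the 58 were lower and 5 higher, and 0 passed the adjusted p. Among all tested genes 6.16% were lower and 4.64% higher at that p. All KO libraries lay below both controls for 9 of the 58 and above both for 5, beside 8.41% and 6.75% of all tested genes. Those named next were chosen after their values were seen. Gem, a small GTPase that inhibits calcium channels, stood at 17.9, 27.8, 14.3, 21.4 and 14.7 RPM in KO and 12.3 and 6.15 in Control, all KO libraries being above both controls (log2 fold change 1.01, SE 0.25, adjusted p = 0.159). Rem2, of the same GTPase family, averaged 6.03 ± 0.816 RPM in KO and 4.57 ± 1.22 in Control, with an overlap of the groups. Nalcn, the sodium leak channel, stood at 21.1, 25.1, 25.0, 25.2 and 24.8 RPM in KO and 29.5 and 29.9 in Control (log2 fold change -0.29, SE 0.09, adjusted p = 0.248). Its scaffold Unc80 averaged 104 ± 10.7 RPM in KO and 132 ± 14.2 in Control, and the KO libraries of both genes lay below both controls. Slc8a1, the sodium-calcium exchanger, averaged 13.8 ± 1.76 RPM in KO and 18.1 ± 0.874 in Control, also with no overlap. Atp2a2, the calcium pump of the endoplasmic reticulum, averaged 806 ± 41.8 RPM in KO and 823 ± 21.3 in Control.

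The summed level of the 112 members was 2182, 2153, 2007, 2180 and 2056 RPM in KO 1 to KO 5 and 2272 and 2135 in Control 1 and Control 2, so the groups overlapped. The median member lay -0.045, -0.043, -0.069, -0.000 and -0.114 from the Control mean on the log2 scale in KO 1 to KO 5. KO 5 stood furthest, and without it the median log2 fold change of the members was -0.006, against -0.038 with it. Without Control 1 it was -0.012, and without Control 2 it was -0.070.

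**Figure D4:**
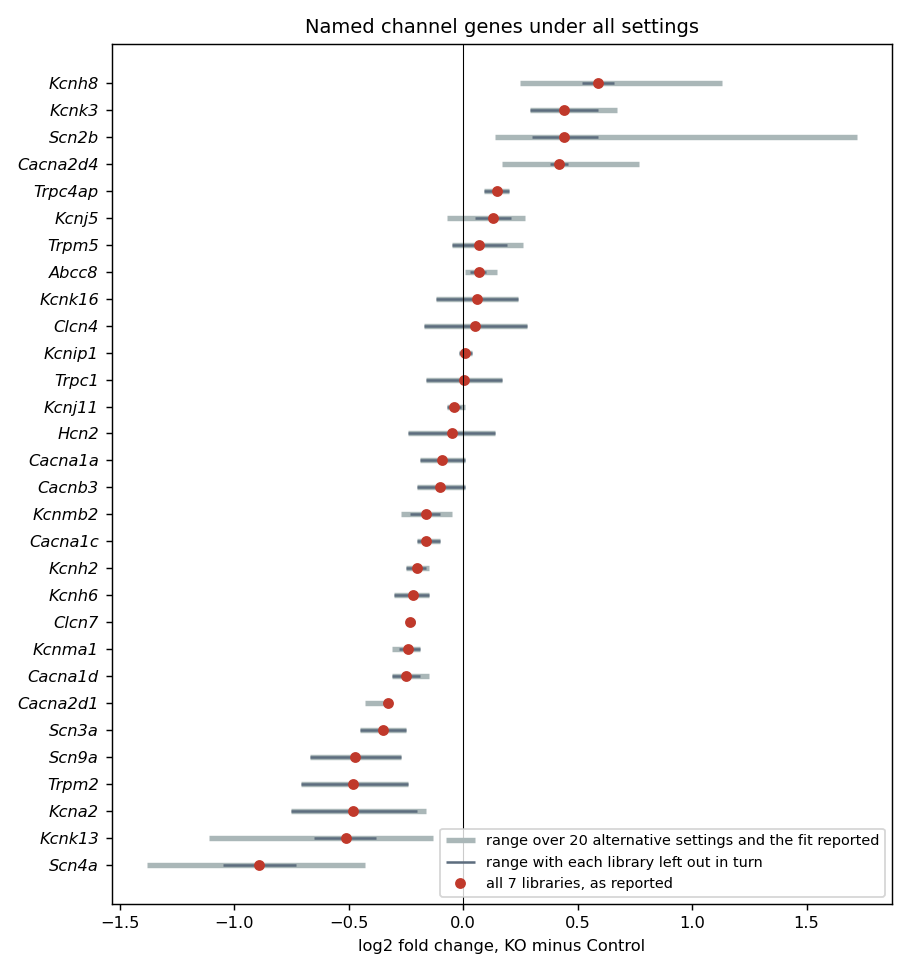
Log2 fold change (KO minus Control) of 30 named channel genes, with the value from all 7 libraries as a point, the range over 20 alternative settings as a wide bar (19 for Scn2b) and the range with each library left out in turn as a narrow bar. Scn4a, Kcnk13, Kcna2, Trpm2, Scn9a, Scn3a, Cacna2d1, Cacna1d, Kcnma1, Clcn7, Kcnh6, Kcnh2, Cacna1c and Kcnmb2 stay below 0 over their whole range, Kcnh8, Scn2b, Kcnk3, Cacna2d4, Trpc4ap and Abcc8 stay above 0, and the others cross 0.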

How the data were processed

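Islet RNA of 5 KO and 2 Control mice was made into polyA libraries with a directional kit, per the labels' protocols. Alignment software (HISAT2) and the build GRCm38 are listed, without roles, per the submitters' processing notes. The authors deposited log2 values, one column per mouse. Unlogged, at least 99.97% of values were whole numbers of a library-specific step (within 0.02), and genes without reads were stored as 0.9 of it. This step gave the read totals and the RPM. The authors also deposited, for selected genes, mean log2 values, the Control to KO ratio and a p-value after correction. Nothing used here states how reads were counted, on which strand, or whether introns were included.

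Genes with at least 10 reads at the median depth (0.366 RPM) in 2 or more libraries were fitted as log2(RPM + 1) with limma 3.58.1 in R 4.3.3, with an intensity trend, KO against Control, two-sided, Benjamini-Hochberg adjusted over 16212 genes. Fold changes on this scale understate those of low genes. Exonic lengths are the union of GENCODE M21 exons, matched by symbol for 112 members and by exact position for 103, and levels per kilobase assume exonic reads. Limits given for 0 reads are 3 reads and cover counting error only.

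The members and all lists were chosen with earlier results of these data known. Named genes are 13 of the beta cell action potential (the rule held 1 more, which is not reported here), the 14 members with the smallest p, and the highest member per kilobase of each of 13 roles, 30 in all. Promoters and positions were read from RefSeq and the deposited table. Scripts were tested on simulated data. Litters and days are not labelled, and each p-value rests on the variation among these 7 libraries alone. Alternatives covered the pseudocount, the filter, scaling, voom, robust empirical Bayes, sex or an acinar score as covariates, male libraries only, KO libraries 2 and 3 left out, the replicate number as a block, and each library left out.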

Additional observations from a re-analysis of the deposited data

Results flagged for a closer look

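Among the 5 KO libraries, 30 named genes were checked for a library standing apart from the other 4, and 2 were found. About 1 in 20 groups is found by chance. Kcnk16 was 110 RPM in KO 3, while the other KO libraries ran from 135 to 140. The gap took up 0.811 of the whole range, beyond Dixon's critical value for 5 samples. Control 2 was as low, at 111 RPM. Trpc1 was 27.3 RPM in KO 2, while the others ran from 22.6 to 23.7, and the gap was 0.757 of the range. The controls stood at 26.7 and 21.0 RPM.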

How the results depend on the processing

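In all 20 alternatives 0 channel genes passed an adjusted p of 0.05, so the count of calls did not move, and of 599 values of named genes 578 kept their direction. Over all genes 10 passed, against 42 with robust empirical Bayes, 47 without KO 2 and KO 3, 127 without Control 1 and 2 with the acinar score. The count at an unadjusted p under 0.05 was 21 and fell to 8 with the acinar score as a covariate. Of those 8 members 3 were higher and 5 lower, beside 886 higher and 309 lower of all 16212 genes with the acinar score. That score was higher in all 5 KO libraries than in both controls, so the score and the group cannot be fully told apart. With it some fold changes were smaller (Scn4a, -0.43) and others larger (Kcnma1, -0.31). The count of members with no overlap was 22, and 35 (31.2%) with male libraries only or without KO 2 and KO 3, beside 24.6% and 26.0% of all genes. It ran from 27 to 51 with 1 library left out, but fewer libraries overlap less by construction (38.4% and 45.5% of members without a control, beside 39.8% and 40.4% of all genes).

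Direction turned in 21 cases, in 10 genes with differences near 0. Scaling to reads in listed genes gave log2 fold changes of -0.01 for Kcnip1 and -0.02 for Trpc1. With the acinar score Kcnj11 was 0.01 and Trpc1 -0.14. With sex as a covariate, and with male libraries only, Kcnip1 was -0.001 and Trpc1 -0.04, and Trpc1 was also -0.04 without KO 2 and KO 3. With 1 library left out the ranges were -0.16 to 0.17 for Trpc1, -0.02 to 0.04 for Kcnip1, -0.05 to 0.19 for Trpm5, -0.19 to 0.01 for Cacna1a, -0.12 to 0.24 for Kcnk16, -0.20 to 0.01 for Cacnb3, -0.17 to 0.28 for Clcn4 and -0.24 to 0.14 for Hcn2. The cause was not tested.

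The replicate numbers 1 and 2 occur in both groups, but the labels give them no shared litter or day. With the replicate number as a block, Trpm5 was -0.03 and Kcnj5 -0.07, 0 members passed, 18 had an unadjusted p under 0.05 (16.1%, beside 8.31% of all genes), and the median log2 fold change was -0.002. The differences between numbers 1 and 2 correlated at -0.22 across genes between the groups. This is 1 pair of differences, and the acinar score rose from KO 1 (5.21) to KO 2 (6.71) but fell from Control 1 (3.75) to Control 2 (3.13). The correlation therefore cannot decide whether the numbers pair the mice. The 2 controls limit every comparison, and members under 1 RPM rest on few reads.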
